A study of Homo sapiens with 6 samples.

Results

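Contacts between the 5 human acrocentric chromosomes, 13, 14, 15, 21 and 22, were described in Hi-C maps of 3 cancer cell lines. Hi-C joins DNA ends that lie close together in the nucleus and counts the joined fragments as read pairs. The members were all pairs of 40-kb bins in which the bins lay on 2 different acrocentric chromosomes, 20554677 of the 2012616879 usable bin pairs between different chromosomes (1.02%), in 10 chromosome pairs and 7313 bins. They were chosen by chromosome and not by a measured value. The 6 pairs among chromosomes 16, 17, 18 and 20, which are short and carry their centromere inside the chromosome, served as controls with 16527515 bin pairs. SNU-C1 is a colon cancer line, HCC1954 a breast cancer line and OE33 an oesophageal adenocarcinoma line, each with no treatment in the labels and each with 1 map. The methods state duplicates, and no source used here says whether a map pools them. The series also holds maps of the colon cancer line SW480, which entered no comparison here. In the one without a replicate number 0.217% of read pairs joined different chromosomes, and the numbered ones were not used. All 3 lines are rearranged cancer genomes. SNU-C1 carries a chromothripsis, the shattering and rejoining of a chromosome, on chromosome 15, and HCC1954 a similar complex rearrangement on chromosome 21. Their part in the values below was not tested.

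On acrocentric chromosomes the centromere lies near one end, and the short arm is a small block of satellite repeats and ribosomal RNA gene clusters. These clusters are the nucleolar organizers: RNA polymerase I transcribes them, and the nucleolus forms around them. Because several organizers can share a nucleolus, the pericentromeric ends of these chromosomes are known to gather at its rim, where satellite and other silent chromatin is also found. In Hi-C this would be read, if at all, from the long-arm DNA next to the centromere, because the ribosomal clusters themselves are not in the bins. No nucleolar marker was measured in these maps, and contact between acrocentric chromosomes is not a measure of nucleolar association by itself.

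Not all of these ends was visible in the maps. Counted in the build of the files (hg19, GRCh37), the first long-arm bin with values in all 3 maps started at 19.68 Mb on chromosome 13, at 20.2 Mb on chromosome 14, at 20.56 Mb on chromosome 15, at 15.56 Mb on chromosome 21 and at 17.28 Mb on chromosome 22. Only 1 usable bin lay on a short arm, that of chromosome 21. A first 5 Mb holds 125 bins, of which 115 were usable on chromosome 13, 123 on chromosome 14, 48 on chromosome 15, 125 on chromosome 21 and 86 on chromosome 22. Chromosome 15 is thus the least visible at its start. Further along, 645 of the 2388 long-arm bins of chromosome 13 were not used, and 633 of these were below the minimum coverage in OE33.

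Words shared between the acrocentric ends were more frequent in bins that were not used. Unused bins at these 5 starts were counted from the gap before the long arm on, so they include bins before the first listed one. Of all 50-base words in them, 22.8% also occurred at the start of another acrocentric long arm. In the usable bins, counted in the first 5 Mb only, 2.22% did. The controls, compared among themselves, gave 1.93% and 1.88%. On chromosome 21, with all 125 bins of its first 5 Mb usable, every unused bin lay before the first listed one. Unused bins within the first 5 Mb of chromosome 22 shared at most 5.92%. Chromosome 14 was highest, with 65.5% in its 32 unused bins, and chromosome 15 lowest, with 5.62% in its 77, where the median bin had 1.72% beside 1.71% in its usable bins. The POTE genes are a primate family of ankyrin-repeat proteins whose copies lie near several of these centromeres. None of the bins under POTEM and POTEG (chromosome 14), POTEB, POTEB2 and POTEB3 (chromosome 15), POTED (chromosome 21), POTEH (chromosome 22) or POTEC (chromosome 18, a control) had values in the 3 maps. The following 120 bases of the reference show how alike such stretches can be. They lie in unused bins on chromosomes 22, 13 and 14, overlap no annotated gene, and are printed 5′ to 3′ with the bases that differ from the chromosome 22 copy in capitals.
chr22:16196001-16196120 (+ strand): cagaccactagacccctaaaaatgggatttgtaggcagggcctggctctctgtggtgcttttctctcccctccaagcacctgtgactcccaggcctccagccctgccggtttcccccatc
chr13:19193171-19193290 (− strand): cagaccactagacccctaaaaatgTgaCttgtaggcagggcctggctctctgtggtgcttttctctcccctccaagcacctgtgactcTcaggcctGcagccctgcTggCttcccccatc
chr14:19928336-19928455 (+ strand): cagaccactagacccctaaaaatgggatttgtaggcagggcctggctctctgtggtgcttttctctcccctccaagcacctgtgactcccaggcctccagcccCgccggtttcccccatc
The chromosome 14 copy differed at 1 of 120 bases and the chromosome 13 copy at 6.

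Values are given as O/E, the mean corrected contact value of a set of bin pairs over the mean of all usable bin pairs between different chromosomes of the same map, so that 1 is the average contact between chromosomes. With 1 map per line no test between lines was possible, and each 95% interval is the exact Poisson interval for the number of read pairs and covers counting error only. The usable maps held 18829938 read pairs between chromosomes in SNU-C1 cells, 21752846 in HCC1954 cells and 48975958 in OE33 cells. Those between acrocentric chromosomes numbered 406693, 261572 and 436838. The lines differed in the share of all read pairs that joined different chromosomes (14.8%, 19.6% and 36.6%), and the part of that share in the differences between lines was not tested.

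Acrocentric chromosomes contacted each other more than the average pair of chromosomes in each line, but not more than the controls did in HCC1954 and OE33 on this scale. Their mean O/E was 1.78 (1.77 to 1.78) in SNU-C1 cells, 1.35 (1.34 to 1.35) in HCC1954 cells and 1.12 (1.12 to 1.13) in OE33 cells. The control pairs stood at 1.58, 1.57 and 1.52. Pairs of an acrocentric with a control chromosome stood at 1.71, 1.35 and 1.36. Relative to the mean of all pairs, acrocentric pairs were therefore 1.13 times the control pairs in SNU-C1 cells, 0.857 times in HCC1954 cells and 0.739 times in OE33 cells. The HCC1954 direction turned with the expected value from the totals of both chromosomes, to 1.16 for acrocentric against 1.07 for control pairs. Without iterative correction the OE33 acrocentric mean fell below 1, to 0.873, with the controls at 2.19. In OE33 an acrocentric chromosome contacted a control chromosome more than it contacted another acrocentric.

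**Figure D1:**
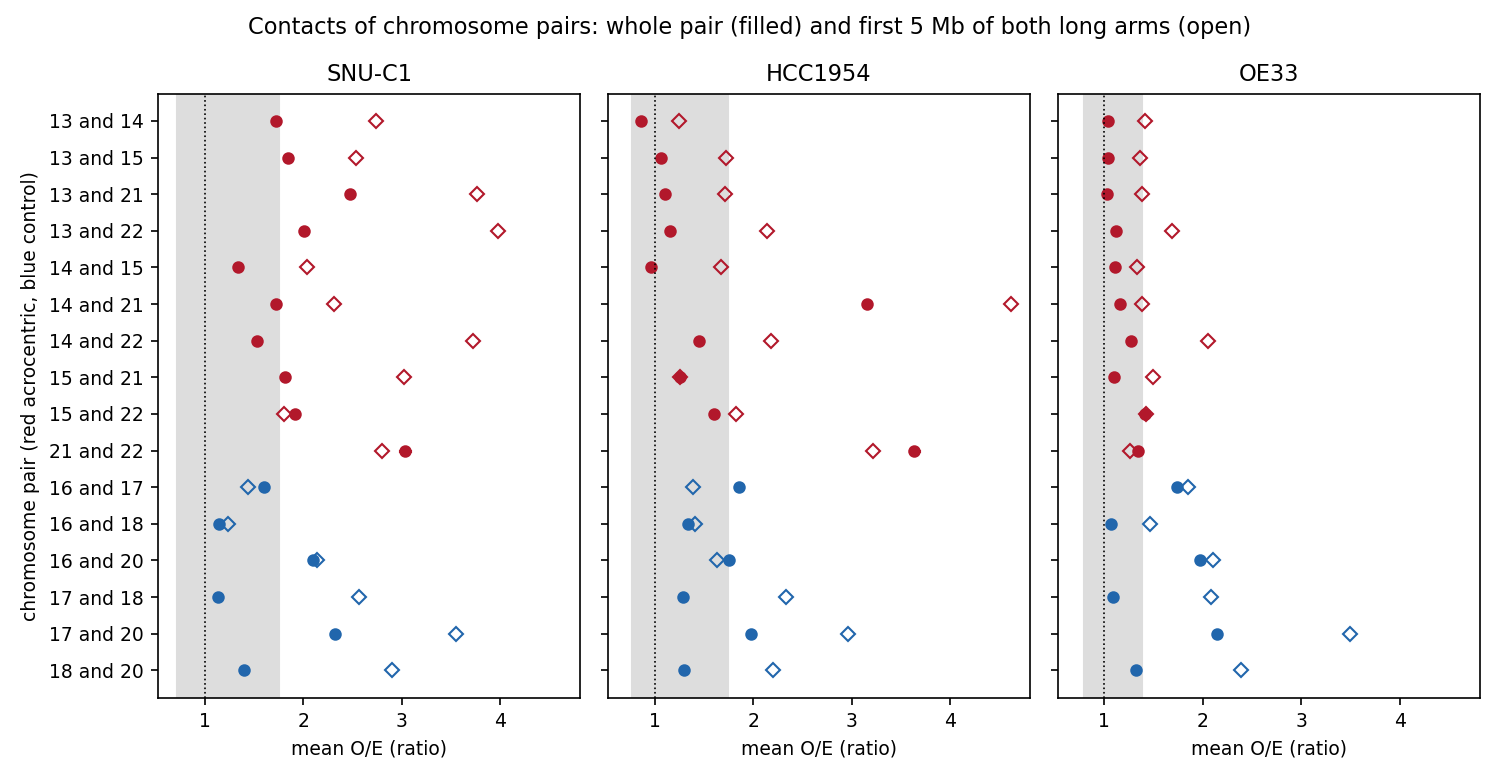
Mean O/E of each acrocentric pair (red) and control pair (blue) in each line, with filled circles for whole chromosome pairs, bars (narrower than most circles) for 95% Poisson intervals, and open diamonds for the first 5 Mb of both long arms. The grey band spans the middle 80% of all pairs; in SNU-C1 the acrocentric circles run from 1.34 to 3.03, and in OE33 they lie between 1.03 and 1.42.

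The 10 acrocentric pairs did not behave as 1 set. In SNU-C1 every pair was above 1, from 1.34 for chromosomes 14 and 15 to 3.03 for chromosomes 21 and 22. The next highest was 2.47, for chromosomes 13 and 21. In HCC1954, 8 of 10 were above 1 and the set was led by pairs with chromosome 21: 3.63 for chromosomes 21 and 22, the highest of all chromosome pairs of that line, and 3.15 for chromosomes 14 and 21, the second highest. Its lowest was 0.865, for chromosomes 13 and 14. In OE33 all 10 were above 1 by little, from 1.03 for chromosomes 13 and 21 to 1.42 for chromosomes 15 and 22. Without chromosome 21 the mean was 1.67 in SNU-C1 cells, 1.09 in HCC1954 cells and 1.12 in OE33 cells, so in HCC1954 most of the excess over 1 came with that chromosome.

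Part of these values belonged to single chromosomes and not to pairs. In SNU-C1, chromosome 13 had a mean O/E of 1.46 with all other chromosomes and chromosome 21 of 1.35, while chromosome 14 had 1.05. Coverage moved with this in part: relative to the median bin of its map, chromosome 13 stood at 2.28 in SNU-C1, and so did the control chromosome 20 at 2.13 in SNU-C1 and 2.10 in OE33. Chromosome 21 stood at 0.578 in OE33. Their part in the O/E was not tested. When the expected value was taken from the totals of both chromosomes, the acrocentric mean was 1.17 in SNU-C1 cells, 1.16 in HCC1954 cells and 1.06 in OE33 cells, beside 1.14, 1.07 and 1.15 for the controls. On that scale 10, 5 and 9 of the 10 acrocentric pairs were above 1, against 45.1%, 39.1% and 40.3% of all chromosome pairs. The control pairs gave 5 of 6 in each line.

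Of the 10 acrocentric pairs, 8 had their highest O/E in SNU-C1, and the other two, both with chromosome 21, in HCC1954. Among all chromosome pairs 31.2% were highest in SNU-C1, and 3 of the 6 control pairs were. By the median over 1-Mb block pairs 9 of the 10 were highest in SNU-C1, where the background was again 31.2%.

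The question of nucleolar clustering concerns the ends beside the centromere, so contacts were next followed by distance from the first listed long-arm bin. When both bins lay in the first 5 Mb, the acrocentric mean O/E was 2.99 (2.89 to 3.09; 3243 read pairs) in SNU-C1 cells, 2.34 (2.25 to 2.44; 2339 read pairs) in HCC1954 cells and 1.48 (1.43 to 1.54; 2654 read pairs) in OE33 cells. These values were 1.68, 1.74 and 1.32 times those of the whole acrocentric pairs. Long-arm starts were also raised elsewhere. The controls stood at 2.31, 1.99 and 2.23, which is 1.46, 1.26 and 1.47 times the whole control pairs, and all chromosome pairs at 1.58, 1.48 and 1.31. Starts of acrocentric with starts of control chromosomes gave 2.51, 2.61 and 2.23. In OE33 an acrocentric start thus met a control start at a higher mean O/E than it met another acrocentric start. Medians over pairs of starts were 1.77 for acrocentric, 1.92 for control and 1.77 for mixed pairs in HCC1954, and 1.40, 2.09 and 1.68 in OE33. In HCC1954 the acrocentric starts thus lay above the control starts by the mean and below them by the median over pairs. The median over block pairs turned the same way in HCC1954, to 1.63 against 1.81. With the expected value from the totals of both chromosomes, the acrocentric starts gave 1.87, 1.78 and 1.39 and the control starts 1.63, 1.34 and 1.67. With it from the totals of both 1-Mb blocks, they gave 1.95, 1.42 and 1.25 against 1.84, 1.19 and 1.23. On that scale the order turned in OE33, by a small margin. Without iterative correction the acrocentric starts gave 3.59, 2.24 and 1.13 against 2.13, 1.88 and 4.92, so the OE33 control starts more than doubled. Single pairs weighed on the mixed values: chromosomes 18 and 21 reached 7.84 in HCC1954 and chromosomes 14 and 18 reached 8.70 in OE33. The HCC1954 acrocentric starts were uneven too, with 4.62 in their highest pair. Without chromosome 21 their mean was 1.77, beside 1.99 for the control starts.

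Of the 10 acrocentric pairs, 8 in SNU-C1 cells, 8 in HCC1954 cells and 9 in OE33 cells had a higher O/E in the first 5 Mb than over the rest of their long arms. The same held for 78.7%, 69.2% and 69.2% of all chromosome pairs, so the acrocentric counts were near the background, and 5, 4 and 6 of the 6 control pairs did so too. The ratio was highest for chromosomes 14 and 22 in SNU-C1 (2.46) and in OE33 (1.62), and for chromosomes 13 and 22 in HCC1954 (1.86). Chromosomes 21 and 22, the pair with the highest overall contact in SNU-C1 and HCC1954 among the 10, were below 1 in every line (0.922, 0.882 and 0.937). Their contact was not concentrated at the centromere side. In HCC1954 the rest of their long arms includes 1-Mb block pairs far higher than in both other lines, with an O/E up to 200. The part of these in the ratio of 0.882 was not tested.

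Within the first 5 Mb the contact was steepest in the first blocks. In SNU-C1 the acrocentric O/E was 5.04 (4.34 to 5.82) when both bins lay in the first Mb, 4.02 in the second, 2.72 in the third, 2.52 in the fourth and 1.96 in the fifth, and stayed between 1.80 and 2.18 from 5 to 35 Mb. OE33 followed the same course at a lower level, with 2.90 (2.46 to 3.40), 1.65, 1.29, 1.21 and 1.15, and then 1.07 to 1.25. HCC1954 did not: its first Mb gave 2.59 (2.02 to 3.27), and its highest value, 2.73, lay at 5 to 10 Mb. That value fell to 2.00 without line-specific block pairs, those far higher in 1 line than in both others, against 2.36 for the first 5 Mb. For the controls the first Mb gave 3.19, 2.53 and 2.81, and for all pairs 2.49, 2.37 and 1.89. In HCC1954 and OE33 the acrocentric and control intervals of the first Mb overlapped, and in SNU-C1 they did not (control 2.56 to 3.93). These first blocks rest on 185, 70 and 155 acrocentric read pairs.

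**Figure D2:**
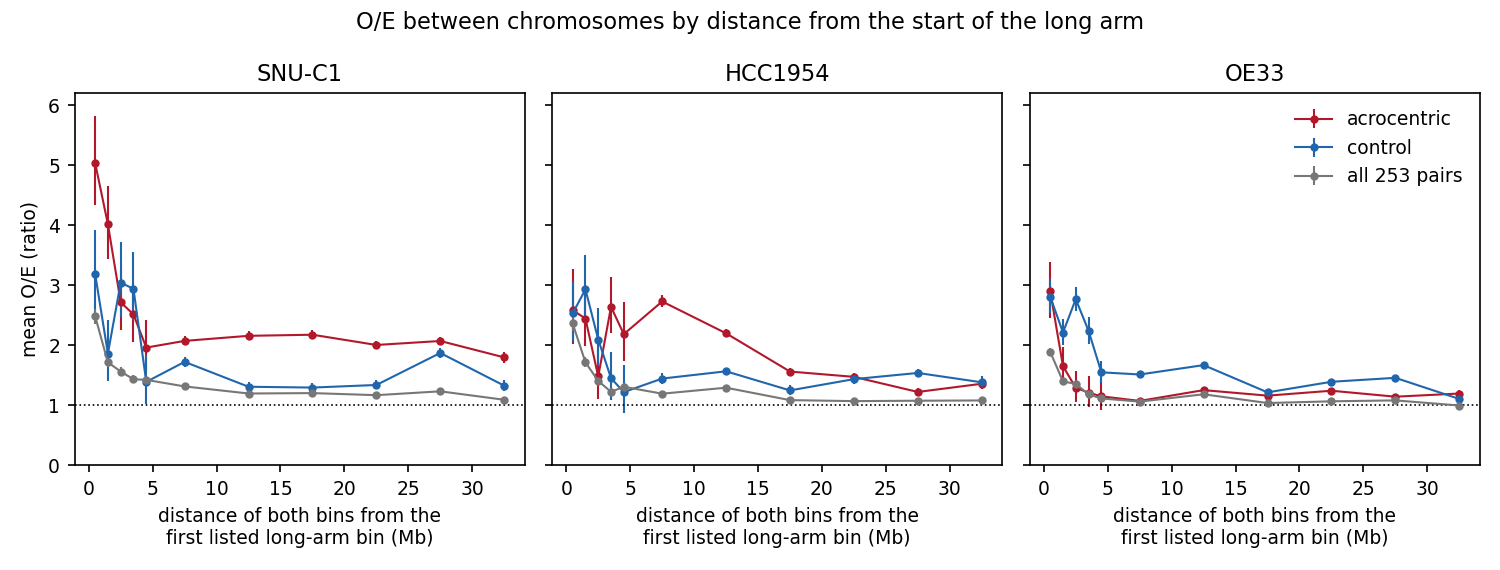
Mean O/E (vertical axis) of bin pairs in which both bins lay at the same distance class from the first listed long-arm bin (horizontal axis, Mb), for acrocentric pairs (red), control pairs (blue) and all chromosome pairs (grey), with 95% Poisson intervals as bars. All 3 sets are highest or nearly highest in the first Mb in SNU-C1 and OE33; the acrocentric curve starts at 5.04 in SNU-C1 and 2.90 in OE33, and in HCC1954 it peaks at 2.73 between 5 and 10 Mb (2.00 without line-specific block pairs).

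By corrected O/E the other ends of the long arms were raised as much or more. When both bins lay in the last 5 Mb, the acrocentric O/E was 4.03 in SNU-C1 cells, 2.34 in HCC1954 cells and 1.67 in OE33 cells, against 4.19, 2.86 and 2.30 for the controls and 3.01, 2.02 and 1.69 for all pairs. Starts with far ends of acrocentric long arms gave 2.02, 1.98 and 1.30. In SNU-C1 the interval of the far ends (3.87 to 4.19) lay above that of the starts (2.89 to 3.09). Acrocentric far ends held 2506, 996 and 2458 read pairs on 82245 bin pairs, and starts 3243, 2339 and 2654 on 96665. Per bin pair, uncorrected read pairs were fewer at far ends than at starts in SNU-C1 and HCC1954, and more in OE33. What raised the far ends was not tested.

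**Figure D3:**
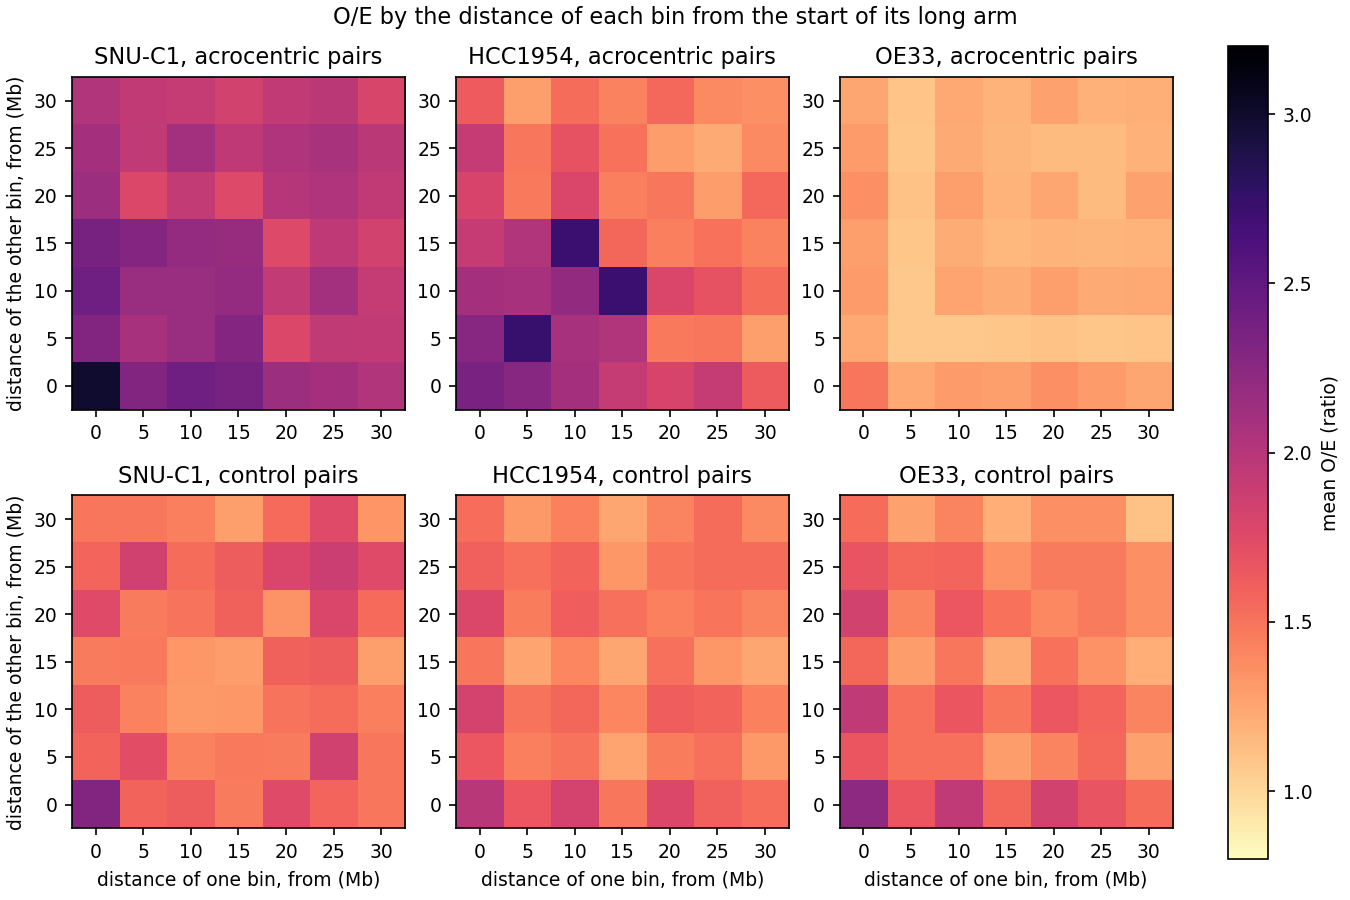
Mean O/E (colour) by the distance of each bin from the start of its long arm (both axes, classes of 5 Mb named by their lower edge), for acrocentric pairs (top) and control pairs (bottom) in each line. The class nearest both starts is the darkest in SNU-C1 (2.99 acrocentric, 2.31 control) and OE33 (1.48 and 2.23), while in HCC1954 the acrocentric map is darkest at 5 Mb with 5 Mb (2.73) and at 10 Mb with 15 Mb (2.71). Without the pair of chromosomes 21 and 22 these classes fell to 2.07 and 1.68, and the class nearest both starts stood at 2.23.

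Where acrocentric starts went when they left their own set was read from their contacts with all non-acrocentric chromosomes. With the 5 Mb on each side of other centromeres their O/E was 1.96 in SNU-C1 cells, 1.91 in HCC1954 cells and 1.48 in OE33 cells. The rest of the acrocentric long arms gave 1.35, 1.12 and 1.13 with the same regions, so the starts were 1.45, 1.71 and 1.32 times as high there. With the last 5 Mb of other arms the starts gave 1.49, 2.10 and 1.31, which is 0.931, 1.51 and 1.09 times the rest of the long arms. Away from both kinds of region the O/E was 1.10, 1.17 and 1.03, which is 0.969, 1.17 and 1.04 times the rest of the long arms. In HCC1954, and by little in OE33, the starts thus exceeded the rest of the arms there too. By chromosome, chromosome 20 was the strongest partner in SNU-C1 (2.78) and in OE33 (1.85), and chromosome 9 in HCC1954 (2.52). Chromosome 20 was also the strongest partner of the rest of the acrocentric long arms in SNU-C1 (2.23) and OE33 (1.57), so this was not particular to the starts. The ratio of starts to the rest was highest with chromosome 19 in SNU-C1 (1.27), chromosome 9 in HCC1954 (1.91) and chromosome 18 in OE33 (1.40). Chromosome 9 stood at 1.38 and 1.08 in SNU-C1 and OE33. Chromosome X was the weakest in SNU-C1 (0.71) and OE33 (0.805), and chromosome 3 in HCC1954 (0.863).

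The genes for 5S ribosomal RNA, which is made by RNA polymerase III outside the nucleolus and then joins the ribosome, gave another place to look. The block of chromosome 1 from 228 to 229 Mb holds 17 of them. Its O/E with the acrocentric starts was 0.605 (0.468 to 0.77; 66 read pairs) in SNU-C1 cells, 1.03 (0.844 to 1.24; 110 read pairs) in HCC1954 cells and 1.0 (0.885 to 1.13; 270 read pairs) in OE33 cells. With the rest of the acrocentric long arms it was 1.01, 1.14 and 0.988. The block was not raised toward the acrocentric starts in any of the 3 maps, and in SNU-C1 it was lower. Chromosome 1 as a whole was also lower there, at 0.915 with the starts against 1.08 with the rest of the arms.

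Acrocentric long arms differ widely in gene content. Per Mb, chromosome 13 carries 3.37 protein-coding genes and chromosome 22 carries 13.1, and gene-rich blocks contact each other across the genome, as silent blocks do among themselves. Blocks of 1 Mb were therefore split into 3 classes, low (0 to 2 genes), middle (3 to 7) and high (8 to 59), and acrocentric pairs were set against all other pairs of the same classes. In all 6 class pairs of each line the acrocentric mean was above that of all other block pairs, controls included. In SNU-C1 the step was wide: 1.99 against 1.09 for low with low, and 2.39 against 1.43 for high with high. In HCC1954 it was 1.25 against 0.877 and 2.04 against 1.54, and in OE33 1.10 against 0.909 and 1.67 against 1.52. Against the controls the acrocentric mean was higher in 6 of 6 class pairs in SNU-C1 cells, in 1 of 6 in HCC1954 cells and in 0 of 6 in OE33 cells. By the median over block pairs the counts were 5, 0 and 0, and between gene-rich blocks of SNU-C1 the medians were 2.14 for acrocentric and 2.15 for control pairs. With the expected value from the totals of both chromosomes the counts were 5, 6 and 1, so HCC1954 turned by the mean. On that scale the acrocentric mean was above that of all other block pairs in 6, 6 and 5 of 6 class pairs. As in the rest of the genome, acrocentric contacts were highest between gene-rich blocks and lowest between gene-rich and gene-poor ones (1.28, 1.03 and 0.881).

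**Figure D4:**
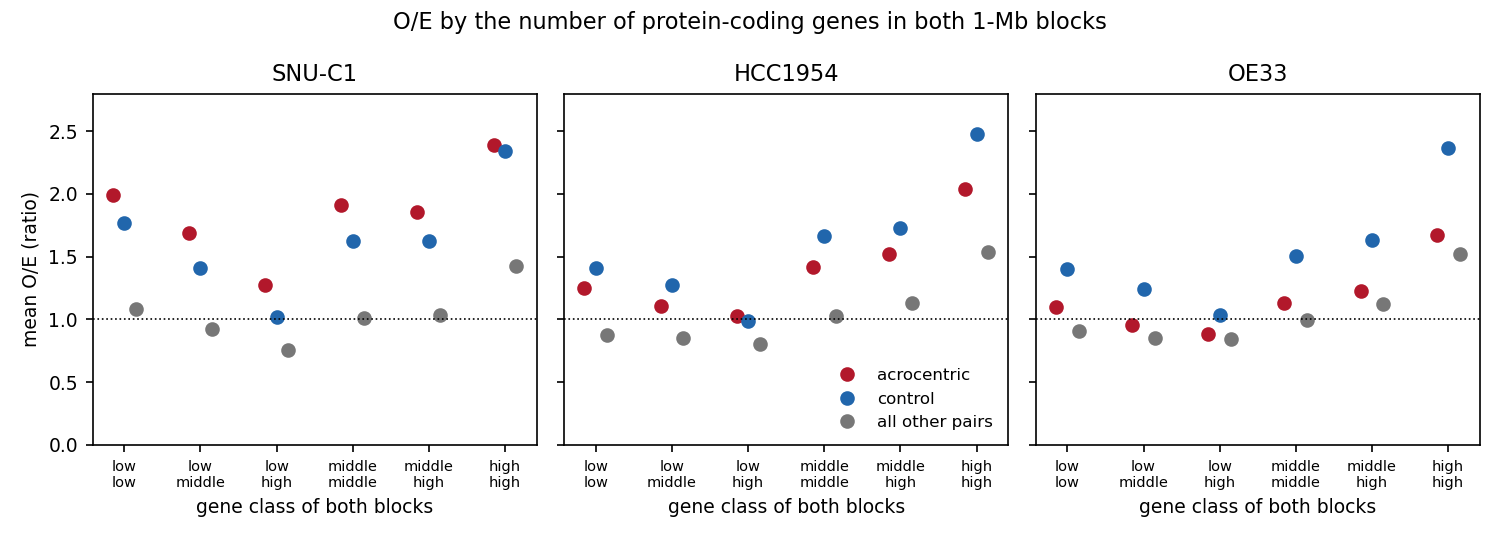
Mean O/E (vertical axis) of 1-Mb block pairs by the gene class of both blocks (horizontal axis), for acrocentric pairs (red), control pairs (blue) and all other pairs (grey) in each line. Red lies above grey in every class of every line, above blue in all 6 classes of SNU-C1 and below it in all 6 of OE33.

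Counted block by block, 34679 acrocentric pairs of 1-Mb blocks could be scored. An O/E of 2 or more was reached by 34.3% of them in SNU-C1, where the background over all block pairs between chromosomes was 8.44%, by 16.8% in HCC1954 (background 7.73%) and by 6.63% in OE33 (background 3.89%). The control chromosomes reached 28.2%, 28.0% and 23.1%. In all 3 lines at once, 2.79% of acrocentric and 10.1% of control block pairs did, with a background of 1%. Among the 190 acrocentric block pairs at both starts the shares were 67.4%, 36.8% and 20.5%, and 10% in all 3 lines. For chromosome 15 only the blocks at 3 and 4 Mb entered, because those nearer the centromere had too few usable bins. At the starts of all chromosomes the background was 26.5%, 19.8% and 12.8%, and 5.07% in all 3 lines. The 150 block pairs at control starts reached 52.7%, 44% and 54.7%, and 34.0% in all 3 lines, so the acrocentric starts exceeded the control starts in SNU-C1 only.

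A block pair was called specific to a line when its O/E was at least 4 and, after 0.5 was added to each, at least 4 times that of both other lines. SNU-C1 had 20 such acrocentric block pairs (0.0577%, background 0.173%), HCC1954 had 109 (0.314%, background 0.396%) and OE33 had 0 (background 0.0698%). Those of HCC1954 all lay in 2 chromosome pairs, 70 between chromosomes 21 and 22 and 39 between chromosomes 14 and 21. The highest joined the block at 30.56 Mb on chromosome 21 to that at 28.28 Mb on chromosome 22, with an O/E of 200 from 1800 read pairs, against 4.78 in SNU-C1 and 1.44 in OE33. The chromosome 21 block carries BACH1, a repressor of haem and oxidant response genes, and GRIK1, a kainate receptor subunit, with CLDN17. The chromosome 22 block carries CHEK2, a DNA damage checkpoint kinase, and XBP1, a transcription factor of the unfolded protein response, with TTC28, PITPNB, HSCB, CCDC117 and ZNRF3. Neither block lies at a long-arm start, at 15 and 11 Mb from it. Whether these chromosomes are joined in HCC1954 was not tested. With line-specific block pairs left out of both the observed and the expected mean, the HCC1954 acrocentric mean was 1.37, and the median over its block pairs was 1.06.

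The block pair that was highest in SNU-C1, in OE33 and by its lowest value over the 3 lines was the same. It joined the last blocks of chromosomes 21 and 22, at 47.56 and 50.28 Mb, with an O/E of 24.3 in SNU-C1 cells, 9.23 in HCC1954 cells and 7.83 in OE33 cells. It rests on 26, 7 and 26 read pairs. On chromosome 21 the block holds PCNT, a scaffold of the centrosome, S100B, a calcium-binding protein of glia, PRMT2, an arginine methyltransferase, and LSS, an enzyme of sterol synthesis, with DIP2A, FTCD, MCM3AP, SPATC1L, YBEY and C21orf58. On chromosome 22 it holds SHANK3, a scaffold of excitatory synapses, ARSA, the lysosomal arylsulfatase, TYMP, thymidine phosphorylase, and PIM3, a kinase, among others. The block pair that stood highest in each of 2 lines thus joined far ends of long arms. Its cause was not tested.

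The 5 blocks that hold the first protein-coding genes of each arm ranged from 1.79 to 2.37 in SNU-C1 cells, from 1.22 to 2.09 in HCC1954 cells and from 1.18 to 1.47 in OE33 cells with the other 4 acrocentric chromosomes. On chromosome 13 the block of TUBA3C, an alpha-tubulin, and TPTE2, a phosphoinositide phosphatase, stood at 2.28, 1.44 and 1.46. On chromosome 14 the block of the olfactory receptors OR4Q3 and OR4M1 stood at 1.79, 2.09 and 1.26. On chromosome 15 the block of GOLGA6L6, a golgin-like gene, and AC012414.1 stood at 2.09, 1.22 and 1.18 on only 3 usable bins. On chromosome 21 the block of LIPI, a lipase, and RBM11, an RNA-binding protein, stood at 1.81, 1.72 and 1.23, and on chromosome 22 that of XKR3 and GAB4 at 2.37, 1.48 and 1.47. All 5 were above 1 in each line, beside a background of 100%, 77.7% and 72.7% of the 300 acrocentric blocks. Their medians (2.09, 1.48 and 1.26) stood beside 1.70, 1.26 and 1.13 for all acrocentric blocks. The SNU-C1 median is the chromosome 15 block itself, which has fewer than the 13 usable bins that the 300 blocks needed. The first block of chromosome 21 was below the median of its own chromosome in SNU-C1 (2.17) and HCC1954 (2.14), and that of chromosome 22 in HCC1954 (1.53).

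The 20 genes chosen as landmarks along the arms lay in 18 blocks, of which 18 were above 1 in SNU-C1 cells, 14 in HCC1954 cells and 15 in OE33 cells. These are 100%, 77.8% and 83.3%, near the background of 100%, 77.7% and 72.7% of all acrocentric blocks. In SNU-C1 the highest was that of CDX2, an intestinal transcription factor on chromosome 13, at 2.51, against 1.20 in HCC1954 and 1.34 in OE33. TMPRSS2, a membrane serine protease on chromosome 21, followed at 2.38, with 2.26 and 1.22 in the other lines. Also on chromosome 13, BRCA2, a homologous recombination factor, stood at 2.11, 1.31 and 1.39, RB1, the retinoblastoma regulator of the cell cycle, at 1.99, 0.954 and 1.19, and KLF5, an epithelial transcription factor, at 1.45, 0.878 and 0.937. The last scored block of that arm, at 94 Mb, stood at 2.83, 1.73 and 1.20. On chromosome 14 FOXA1, a pioneer factor of epithelia, stood at 1.50, 1.79 and 1.12, and NKX2-1, a lung and thyroid factor, at 1.54, 1.59 and 1.10. AKT1, a growth factor signalling kinase near the end of that arm, stood at 1.97, 1.77 and 1.43.

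The lowest landmark block of SNU-C1 and of HCC1954 lay close to a long-arm start. SNRPN, in the imprinted region of chromosome 15 and 4 Mb from the first listed bin, stood at 1.19 (1.10 to 1.28), 0.814 (0.735 to 0.899) and 0.971 (0.914 to 1.03). UBE3A, the ubiquitin ligase next to it, stood at 1.27, 0.927 and 0.989. On the same chromosome SMAD3, a mediator of TGF-beta signalling, reached 1.66, 1.37 and 1.29, and IGF1R, a growth factor receptor, 1.81, 1.09 and 1.16. On chromosome 21 APP, the amyloid precursor, stood at 2.08, 1.91 and 1.19, RUNX1, a blood cell transcription factor, at 2.17, 2.19 and 1.19, and ERG, an ETS factor, at 2.24, 1.81 and 1.09. On chromosome 22 the shared block of BCR and SMARCB1, a GTPase regulator and a chromatin remodeller, stood at 1.81, 1.73 and 1.22, that of EWSR1 and NF2 at 2.05, 2.39 and 1.37, and that of EP300, a histone acetyltransferase, at 1.70, 1.47 and 1.45. In HCC1954 the value of the EWSR1 and NF2 block includes its contact with the BACH1 and GRIK1 block of chromosome 21, which at an O/E of 99.8 from 916 read pairs was the second highest acrocentric block pair of that line.

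Along the arms the contact of each block with the other acrocentric chromosomes was set beside its contact with the controls. The 2 could part: in HCC1954 the block at 1 Mb on chromosome 21 stood at 1.53 with the acrocentrics and 3.52 with the controls, and the block at 3 Mb at 2.49 and 1.71. On chromosome 22 of that line the block at 11 Mb stood at 3.27 and 2.06. In OE33, 8 of the 300 acrocentric blocks (2.67%), all on chromosome 13, were higher with the other acrocentrics than with the controls. In SNU-C1 201 were (67%), among them 81 of 87 on chromosome 14 but 3 of 32 on chromosome 22. In HCC1954 114 were (38.0%), among them 87 of 87 on chromosome 14, 23 of 33 on chromosome 21, 1 of 72 on chromosome 13 and 0 of 76 on chromosome 15. The background, over 1343 long-arm blocks that are neither acrocentric nor control, was 81.5% in SNU-C1 cells, 28.0% in HCC1954 cells and 11.2% in OE33 cells, so the acrocentric share was above it in HCC1954 and below it in both other lines. With the expected value from the totals of both chromosomes the acrocentric shares were 55.0%, 50.7% and 25.7%. The background was 72.2%, 69.6% and 71.8%, so that HCC1954 too lay below it. Single chromosomes lay on both sides. Chromosome 13 was above the background in SNU-C1 (76.4%) and in OE33 (80.6%, 58 of 72), with the other acrocentrics below it. In HCC1954 chromosomes 14 and 21 (84.8%) were above it and chromosomes 13, 15 and 22 below. Chromosome 14 of HCC1954 kept 87 of 87 on that scale, but its acrocentric partners were unequal. In that line its pair with chromosome 21 held 39 line-specific block pairs, and its pair with chromosome 13 was the lowest acrocentric pair (0.865). These unequal partners also enter its start ratios below, and the share of each was not tested. For the first 5 Mb taken alone, the ratio of both values was 0.978, 1.04, 1.18, 1.03 and 0.882 for chromosomes 13, 14, 15, 21 and 22 in SNU-C1. It was 0.726, 1.60, 0.787, 0.819 and 0.665 in HCC1954, and 0.871, 0.65, 0.854, 0.835 and 0.718 in OE33. The ratio was above 1 on 3 of the 5 starts in SNU-C1 cells, on 1 in HCC1954 cells and on 0 in OE33 cells. With the expected value from the totals of both chromosomes it was above 1 on 2, 1 and 0: chromosome 14 of SNU-C1 fell to 0.945, chromosome 21 of SNU-C1 stood at 1.004, and chromosome 14 of HCC1954 stood at 1.76.

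**Figure D5:**
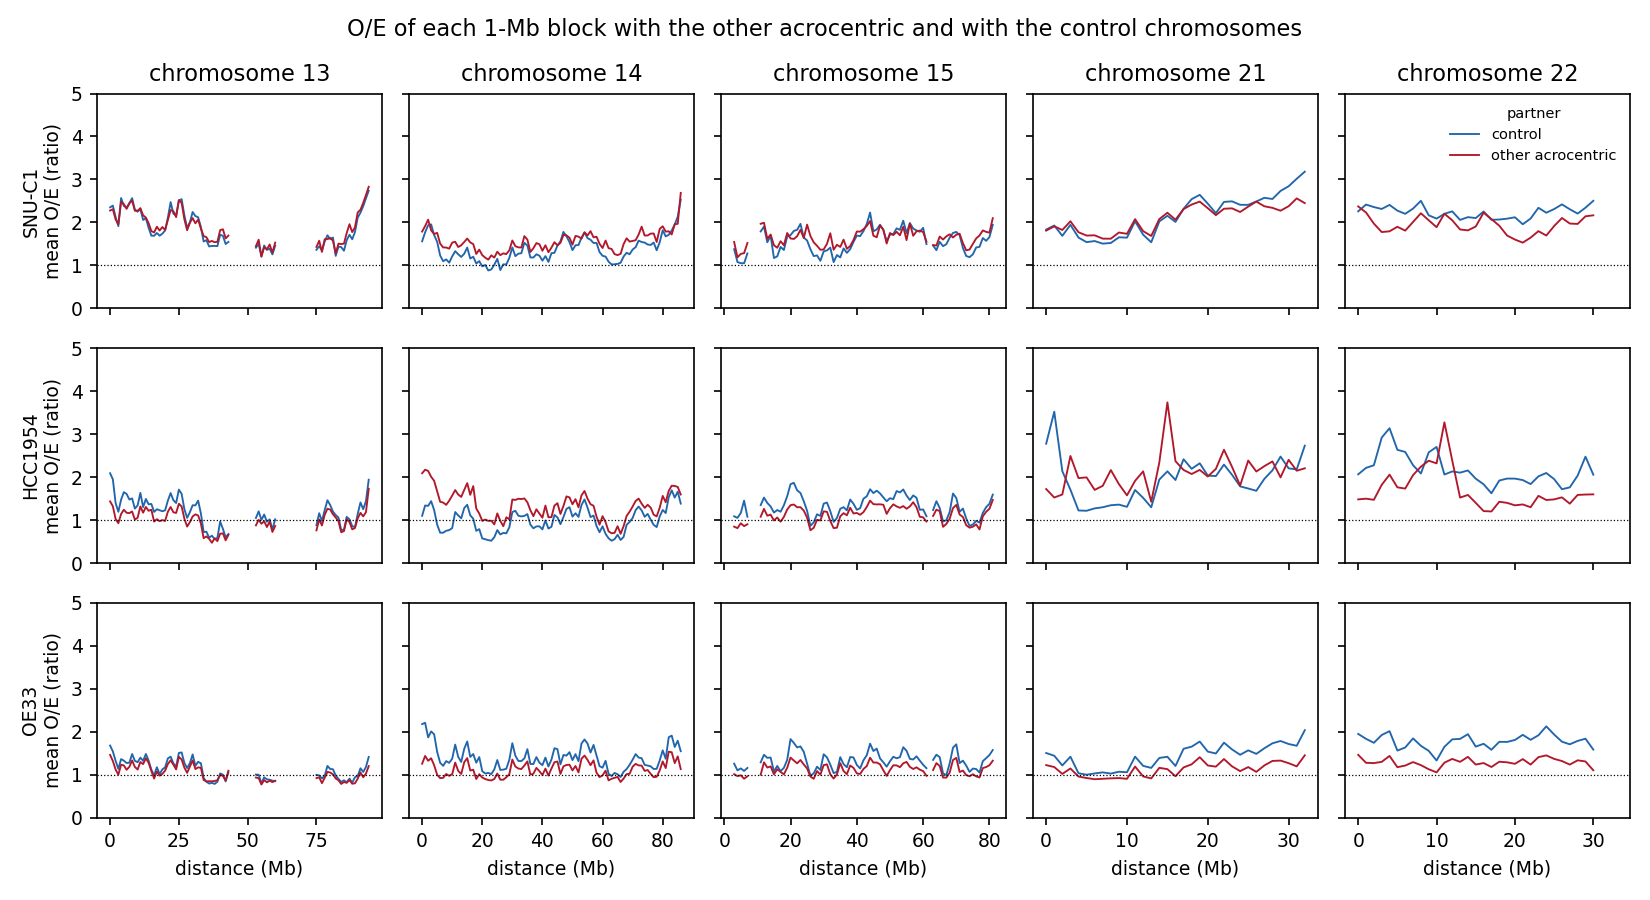
Mean O/E (vertical axis) of each 1-Mb block with the other acrocentric chromosomes (red) and with the control chromosomes (blue) against its distance from the first listed long-arm bin (horizontal axis, Mb), by chromosome (columns) and line (rows), with breaks where under 13 of 25 bins were usable. In HCC1954 the curves part at the start of chromosome 21 and at 11 Mb on chromosome 22 (3.27 against 2.06). Red lies above blue over all of chromosome 14 in HCC1954 and below it on chromosomes 14, 15, 21 and 22 in OE33.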

How the data were processed

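Hi-C was made with the in situ protocol and the enzyme MboI. According to the study's methods BWA-MEM placed the reads on hg19, Picard removed PCR duplicates, and iterative correction was applied to matrices from in-house pipelines. The authors deposited 1 value per pair of 40-kb bins, a corrected contact signal, in 6 maps, of which those of SNU-C1, HCC1954 and OE33 were compared. Read pairs were recovered by fitting 1 factor per bin in 45 sweeps. Within 0.02, 100% of the values tested (up to 20 read pairs) came out whole. The depth was 135017346, 116359220 and 141120752 read pairs. Bins needed 0.25 of the median coverage in all 4 lines (65229 of 75918), and 1-Mb blocks 13 of 25 such bins. The long arm was taken to start at the first bin with values in the 3 maps after the last gap of at least 2.5 Mb. Genes came from GENCODE on GRCh37, where 23 of 23 chromosome lengths equalled those of the bins. Python 3.11.15, NumPy 2.4.6 and SciPy 1.17.1 were used, and the steps were tested on simulated data. No p-values were computed, since each line has 1 map. Named genes followed a rule: the first protein-coding genes of each arm, the POTE genes, a list of landmark genes, genes of the highest block pairs (only some are named), and the 5S genes. The members and lists were chosen with earlier results of these data known. The numbered SW480 maps were not used here.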

Additional observations from a re-analysis of the deposited data

Results flagged for a closer look

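The mean O/E of acrocentric pairs over that of control pairs lay on different sides of 1 in the 3 lines: 1.13 in SNU-C1 cells, 0.857 in HCC1954 cells and 0.739 in OE33 cells. The difference was not tested, because each line has 1 map. With the expected value from the totals of both chromosomes the acrocentric and control means were 1.17 and 1.14 in SNU-C1, 1.16 and 1.07 in HCC1954, and 1.06 and 1.15 in OE33, so that HCC1954 turned. In the SW480 map without a replicate number, which entered no comparison, 5039 of the 353885 read pairs between chromosomes joined acrocentric chromosomes (1.42%). Acrocentric bin pairs make up 1.02% of the usable bin pairs between chromosomes. The 353885 read pairs were counted over all bins, so these shares have unlike denominators. No O/E was computed for this map.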

How the results depend on the processing

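Results are given in the order SNU-C1, HCC1954, OE33, first for whole acrocentric pairs (1.78, 1.35 and 1.12) and then for the first 5 Mb of both long arms (2.99, 2.34 and 1.48). Of 66 values of these under alternatives, 16 stayed within the counting interval of the main value, 49 moved out of it on the same side of 1, and 1 changed its side of 1. Without iterative correction the whole pairs gave 2.11, 1.18 and 0.873 and the starts 3.59, 2.24 and 1.13, beside 1.41, 1.49 and 2.19, and 2.13, 1.88 and 4.92 for the controls. The cause was not tested. With the expected value from the totals of both chromosomes they gave 1.17, 1.16 and 1.06, and 1.87, 1.78 and 1.39. Medians over block pairs were 1.60, 1.06 and 1.06, and 2.71, 1.63 and 1.42, beside 1.37, 1.39 and 1.38, and 2.07, 1.81 and 2.11 for the controls, so that the HCC1954 starts fell below the control starts. A minimum coverage of 0.5 gave 1.76, 1.29 and 1.13, and 3.25, 2.41 and 1.61. Without the first 2 Mb the values were 1.76, 1.33 and 1.11, and 2.37, 2.09 and 1.21. Without chromosome 15 they were 1.90, 1.56 and 1.12, and 3.16, 2.56 and 1.50. Without chromosome 21 they were 1.67, 1.09 and 1.12, and 3.01, 1.77 and 1.59, so that the HCC1954 starts fell below the control starts (1.99). Without line-specific block pairs they were 1.81, 1.37 and 1.13, and 3.07, 2.36 and 1.51. Starts of 3 Mb gave 3.72, 2.27 and 1.72, and starts of 10 Mb 2.38, 2.42 and 1.24. Both of the following alternatives were chosen after seeing the data. An expected value from the totals of both blocks gave 1.17, 1.16 and 1.06, and 1.95, 1.42 and 1.25, beside 1.84, 1.19 and 1.23 for the control starts. The OE33 starts thus came to lie slightly above the control starts. Without bins with over 5% shared 50-base words the values were 1.78, 1.34 and 1.12, and 3.01, 2.26 and 1.45. Further settings chosen after seeing the data (chromosome totals for gene classes, blocks and single starts, medians for gene classes, and distance classes without line-specific block pairs) stand beside those results. Counting error limits single block pairs: the highest rests on 26 read pairs in SNU-C1 and 26 in OE33. No paired analysis was possible because each line has 1 map.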
